A study of Mus musculus with 16 samples.

Results

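The regions described here were accessible in Tet1 knockout cells on day 2 of neural differentiation. On day 3 they stayed within a limit on peak rank in knockout cells given the Wnt inhibitor XAV939 (XAV). In untreated knockout and untreated wild-type cells of day 3 they did not. They numbered 466 of the 80585 consensus regions of the series. Each of the 16 deposited peak lists was cut to the 50000 distinct intervals that ranked highest by −log10 p, a value from the authors' peak caller, windows of 150 bp on either side of the summits were merged over libraries, and merged regions held by at least 2 libraries were retained. A region was called open in a library when a retained interval overlapped it by at least 1 bp. The 466 regions were chosen by this measure alone: they were open in both XAV-treated knockout libraries of day 3 and in both knockout libraries of day 2, and in none of the untreated knockout and wild-type libraries of day 3. They are called kept regions below. Of the 2603 regions that were open in both knockout libraries of day 2 and closed in the untreated knockout and wild-type libraries of day 3, a further 695 were open in 1 of the XAV libraries (split regions) and 1442 in neither (unkept regions).

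Accessibility was profiled by omni-ATAC-seq in mouse embryonic stem cells (ESCs) converting in monolayer, with bFGF in the medium, toward anterior neural progenitor cells (antNPCs). All lines were on the B6129S6F1 Tet1<tm1Koh> background, with 2 libraries per group. Tet1 knockout (KO) cells were treated with 5 µM of the tankyrase inhibitor and Wnt antagonist XAV from day 2 and sampled on day 3, and their untreated counterparts were taken on days 3 and 2, all from the blastocyst-derived lines KO1 and KO15. Tet1 catalytic mutant (MUT) cells of day 3 and day 2 came from CM59 and CM69, clones made by Cas9 editing of the wild-type (WT) line WT7. WT cells given 3 µM of CHIR99021 (CHIR), a GSK3 inhibitor that activates Wnt signalling, from day 2 were sampled on day 3 from WT7 and WT34, and untreated WT cells of day 3 and day 2 from WT70 and WT72. CHIR treatment and line therefore cannot be told apart, except that WT7 is the parent of the MUT clones. No group in the labels received vehicle alone, the cells had been grown on feeders before plating, and the second library of each day 2 group carries the word merged in its deposited name.

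In canonical Wnt signalling, β-catenin enters the nucleus and joins TCF/LEF factors at enhancers. XAV stabilises AXIN, which lowers β-catenin, whereas CHIR blocks GSK3 and raises it. ESCs on the way to neural fate pass through an epiblast-like state in which SOX and OCT factors occupy many enhancers, and high Wnt activity at that stage favours primitive streak fates. Transcription start site (TSS) proximal sites are mostly open in many cell types, while distal sites open and close with cell state. TET1 oxidises methylated cytosine and also acts without that activity, which is why KO and MUT cells were profiled side by side.

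Of the kept regions, 7 are shown with the 300 bases around their centres, on the plus strand of GRCm38 (the mm10 build), from RefSeq. The capitals mark matches to ACAANGG (SOX), ATGCNAAT (OCT), TTGTNATGC (joint OCT-SOX) or CCAATCA (NFY) on either strand, the motifs that were more frequent in kept regions than in all consensus regions by the widest margins. SOX and OCT matches can share bases with an OCT-SOX match. The first 4 regions are among the 10 kept regions with the widest gap between their ranks in the libraries that had to be open and the best rank in those that had to be closed. The last 3 lie nearest to genes of the fixed lists. Each window shown holds a match, so these windows do not stand for the kept regions at large. Of the same 2 kinds, the windows nearest to Gpn1, Zfp280d, Aak1, Cubn, Prdm14 and Wnt8a held no match to these motifs. Nor did the window at chr5:46798679-46798978, with no protein-coding TSS within 100 kb. SOX was matched in 25.8% of all kept regions and NFY in 10.5%. A region is named for the nearest protein-coding TSS, which need not be the gene it lies in.
Rerg (chr6:137146940-137147239, in an intron of Rerg): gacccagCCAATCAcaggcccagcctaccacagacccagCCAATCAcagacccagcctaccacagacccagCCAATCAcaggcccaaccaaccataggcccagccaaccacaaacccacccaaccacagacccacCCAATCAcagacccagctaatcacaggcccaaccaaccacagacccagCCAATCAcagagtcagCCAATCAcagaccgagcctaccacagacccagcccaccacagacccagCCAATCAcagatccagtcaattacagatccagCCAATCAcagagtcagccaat
Map2 (chr1:66397750-66398049, in an intron of Map2): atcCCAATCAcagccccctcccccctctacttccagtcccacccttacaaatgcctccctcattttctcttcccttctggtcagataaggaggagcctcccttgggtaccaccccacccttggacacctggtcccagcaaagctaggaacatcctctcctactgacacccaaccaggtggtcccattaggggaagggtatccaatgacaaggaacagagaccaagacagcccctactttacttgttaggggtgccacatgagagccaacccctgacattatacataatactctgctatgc
Sem1 (chr6:6628773-6629072, in an intron of the lincRNA gene Gm20618): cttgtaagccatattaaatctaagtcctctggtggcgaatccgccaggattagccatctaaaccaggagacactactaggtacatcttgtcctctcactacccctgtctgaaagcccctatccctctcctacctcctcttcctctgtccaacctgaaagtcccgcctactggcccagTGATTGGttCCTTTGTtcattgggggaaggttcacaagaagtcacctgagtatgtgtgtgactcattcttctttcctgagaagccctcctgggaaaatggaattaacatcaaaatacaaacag
Lta4h (chr10:93419752-93420051, intergenic): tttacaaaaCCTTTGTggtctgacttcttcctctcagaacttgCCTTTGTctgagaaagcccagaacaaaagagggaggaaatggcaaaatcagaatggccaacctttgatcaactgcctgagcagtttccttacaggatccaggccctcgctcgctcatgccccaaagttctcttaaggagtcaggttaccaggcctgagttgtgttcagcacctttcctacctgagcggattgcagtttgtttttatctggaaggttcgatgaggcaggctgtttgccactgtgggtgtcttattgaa
Sox9 (chr11:112826571-112826870, in an intron of the lincRNA gene 4933434M16Rik): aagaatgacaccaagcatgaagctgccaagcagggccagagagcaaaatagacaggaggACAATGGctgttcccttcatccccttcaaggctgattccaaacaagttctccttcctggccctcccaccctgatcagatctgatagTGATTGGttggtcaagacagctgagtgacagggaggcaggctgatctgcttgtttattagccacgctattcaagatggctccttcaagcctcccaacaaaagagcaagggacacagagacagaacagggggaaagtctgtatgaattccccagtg
Grhl2 (chr15:37215873-37216172, intergenic): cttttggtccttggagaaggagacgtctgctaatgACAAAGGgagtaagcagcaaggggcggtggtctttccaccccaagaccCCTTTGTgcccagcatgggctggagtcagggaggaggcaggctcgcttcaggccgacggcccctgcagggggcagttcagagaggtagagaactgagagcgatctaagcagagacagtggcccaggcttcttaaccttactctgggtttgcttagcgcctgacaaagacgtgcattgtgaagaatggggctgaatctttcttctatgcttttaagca
Trh (chr6:92237683-92237982, intergenic): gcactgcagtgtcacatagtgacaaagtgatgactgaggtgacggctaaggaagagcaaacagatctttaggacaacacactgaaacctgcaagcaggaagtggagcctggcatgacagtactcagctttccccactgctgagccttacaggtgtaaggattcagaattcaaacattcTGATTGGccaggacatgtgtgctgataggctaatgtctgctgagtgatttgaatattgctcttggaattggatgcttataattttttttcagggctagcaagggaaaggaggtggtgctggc
The Rerg window held 8 NFY matches, at bases 8, 40, 72, 136, 184, 200, 248 and 280 of the window. They lie in a short run of letters that recurs through the window with small changes. The Sem1 window had an NFY match at bases 178 to 184 and a SOX match at bases 187 to 193. The Grhl2 and Lta4h windows held a pair of SOX matches each.

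Between 161449 and 276451 peaks were deposited per library (135359 to 219047 distinct intervals), and the −log10 p at rank 50000 lay between 6.84 and 21.8. These lists carry no read counts, so depth is unknown and no counting interval is given. Per library, 61.4 to 65.1% of all consensus regions were open, in every group. As a check of the labels, an intronic region of Tet1 at chr10:62884128-62884462 was open in 0 of 6 KO libraries and in 10 of 10 WT and MUT libraries. Promoters of 6 of 6 epiblast genes, 4 of 4 streak genes and 4 of 4 extraembryonic endoderm genes were open in every library, as were those of 4 to 5 of 7 fibroblast and 1 to 3 of 4 trophoblast genes. Those of 4 neural genes were open at 2 in both KO libraries of day 2 and at 3 or 4 elsewhere, so that open promoters separated cell types poorly. Kept regions were 306 to 782 bp wide, with a median of 339 bp.

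Closed did not mean absent. The best deposited interval at a kept region ranked, in the median, 39509 (KO1) and 39908.5 (KO15) in XAV-treated KO libraries, against 76707 and 85815 in untreated KO libraries of day 3, where rank 1 is the highest −log10 p. In WT libraries of day 3 the median ranks were 62695.5 (WT70) and 72010.5 (WT72), and in KO libraries of day 2 they were 35313 and 35400.5. The rule used these libraries, so the order is a description. A weaker deposited interval overlapped 94.8% and 73.2% of kept regions in the untreated KO libraries of day 3 and 97.4% and 89.5% in the WT libraries of day 3. All 4 of these libraries held such an interval at 295 kept regions, 3 of them at 138, 2 at 28, 1 at 4 and none at 1. In cell mixtures such as these, fewer cells with an open region and less signal per cell cannot be told apart.

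**Figure D1:**
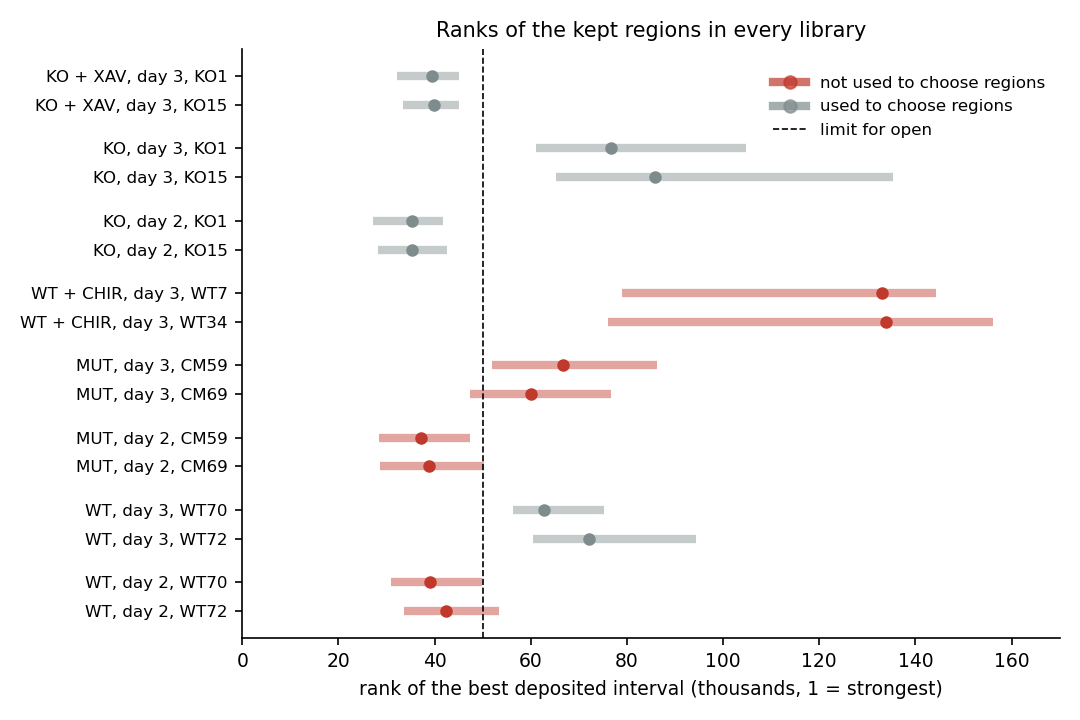
Rank of the best deposited interval at the 466 kept regions in each of the 16 libraries (x axis, in units of 1000 ranks, rank 1 strongest; a region with no interval counts as last), as the median (point) and the quartiles (bar), with the limit for open at rank 50000 as a dashed line. The libraries of the rule (grey) are separated by construction. Among the others (red), CHIR medians were 133076 and 133890, MUT day 3 medians 66628.5 and 60046.5, and day 2 medians 37254.5 to 42431.5.

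Many kept regions stood close to the limit. The weakest rank in a library that had to be open was 49967 and the strongest in a library that had to be closed was 50014. In at least 1 of the 8 libraries of the rule, 92 kept regions lay within 1000 ranks of the limit, 346 within 5000 and 441 within 10000. With 30000 intervals retained, 272 regions met the rule, and only 10 of the 466 were found again. With 70000 retained there were 647, of which 56 of the 466 were found again, and with every interval of −log10 q of at least 2 there were 1720, with 1 found again. Which regions are named therefore depends on the limit, while kept regions stayed above unkept ones in mean occupancy of MUT libraries of day 3: at 30000 and 70000 intervals, means of 25.0% and 30.3% of the kept regions were open in MUT day 3 libraries, against 5.45% and 6.65% of the unkept regions.

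When 1 library of the rule was left out and the rule applied to the other 7, the regions found were open in the omitted library in 56.8% (KO1) and 57.7% (KO15) of cases for XAV-treated KO, 26.3% and 25.0% for untreated KO of day 3, 50.1% (WT70) and 27.9% (WT72) for WT of day 3, and 81.2% and 67.3% for KO of day 2. The share of all consensus regions open in the same libraries was 61.4 to 65.1%. Regions chosen without an XAV library were open in it somewhat less often than consensus regions at large. Those chosen without an untreated KO library of day 3 were open in it less often still. Consensus regions at large did not have to meet the rule in the other 7 libraries, so they are not a matched reference. Of the 2603 regions that the XAV libraries divided, 807 were open in XAV-treated KO1, 820 in XAV-treated KO15 and 466 in both. The rule found 820 regions without XAV-treated KO1, 807 without XAV-treated KO15 and 933 without WT70 of day 3, against 466 with all 8 libraries.

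The 8 MUT, CHIR and WT day 2 libraries took no part in the choice and show how the kept regions behaved elsewhere. On day 3, 10.1% (WT7) and 9.87% (WT34) of the kept regions were open in CHIR-treated WT cells, against 21.7% (CM59) and 31.5% (CM69) in MUT cells. On day 2, 80.0% and 74.0% were open in MUT cells and 75.3% (WT70) and 67.4% (WT72) in WT cells. All 4 libraries of day 3 thus lay below all 4 of day 2, and the CHIR libraries below the MUT libraries of day 3. The mean was 18.3 ± 10.4% on day 3 and 74.2 ± 5.23% on day 2 (SD, n = 4 each), a difference of −55.9 percentage points with a two-sided exact permutation p of 0.0286, the smallest that 4 against 4 allows, and 0.0781 after Benjamini-Hochberg adjustment over 5 tests. Since KO and WT cells of day 3 were required to be closed, this asks only whether low occupancy on day 3 was seen in libraries outside the rule. The WT cells of day 3 were CHIR-treated and from other lines than those of day 2. Among them day, treatment and line cannot be told apart. The test also ignored that CM59 and CM69 were sampled on both days.

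**Figure D2:**
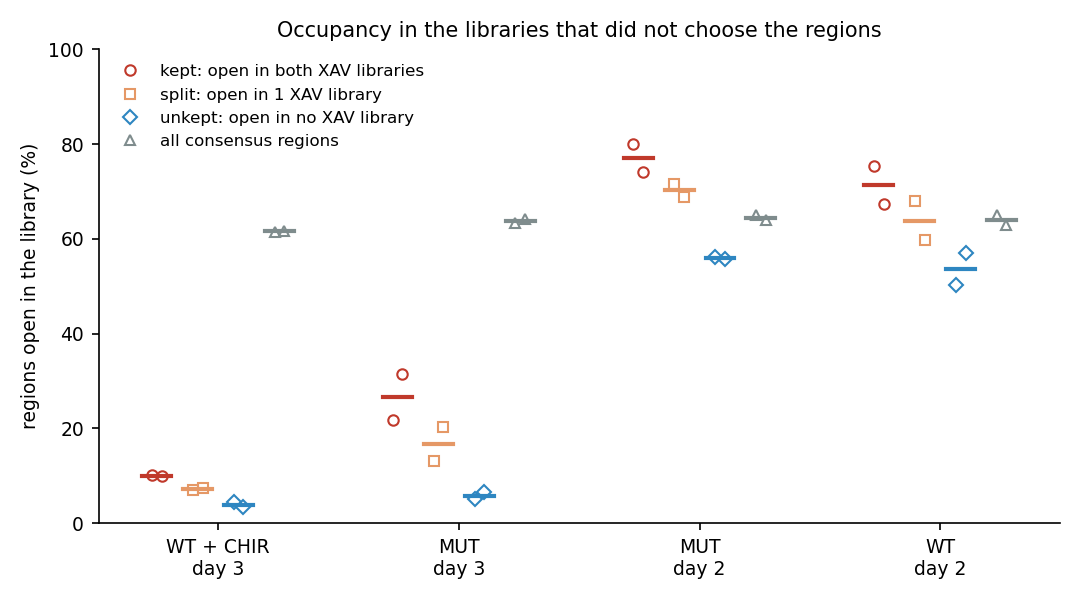
Share of regions open (y axis, %) in each library that the rule did not use, by group and day (points, 2 libraries per group; bars, group means), for the 466 kept, 695 split and 1442 unkept regions and all 80585 consensus regions. Kept regions were open at 21.7% and 31.5% in MUT libraries of day 3, where unkept regions were at 5.06% and 6.52%, and all consensus regions stayed between 61.4% and 65.1%.

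CHIR-treated WT cells averaged 9.98 ± 0.152% and MUT cells of day 3 averaged 26.6 ± 6.98% (SD, n = 2 each), a difference of −16.6 points. MUT cells averaged 26.6 ± 6.98% on day 3 and 77.0 ± 4.25% on day 2 (SD, n = 2 each), a difference of −50.4 points. The exact permutation test cannot go below 0.333 with 2 libraries against 2, which is the p of both (adjusted p = 0.333). Within the lines, the day 3 value minus the day 2 value was −58.4 points in CM59 and −42.5 points in CM69. CHIR libraries held any deposited interval at 51.7% and 54.3% of the kept regions, against 94.0% and 97.6% in MUT libraries of day 3. In the CHIR libraries the shares were 56.7% and 59.9% of split and 43.7% and 49.0% of unkept regions. They were 88.7% and 90.5% of all consensus regions.

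The split by XAV, made in KO cells, was set against the other genotypes. In MUT libraries of day 3, 21.7% and 31.5% of kept, 13.1% and 20.3% of split and 5.06% and 6.52% of unkept regions were open, with no overlap between the sets. In CHIR libraries the shares were 10.1% and 9.87%, 6.91% and 7.34%, and 4.37% and 3.40%. On day 2, 67.4 to 80.0% of kept regions were open in MUT and WT libraries, against 50.3 to 56.9% of unkept regions. Averaged per line, the occupancy of kept regions exceeded that of unkept regions in 6 of 6 lines, by 5.72 to 25.0 points. The mean was 44.4% for kept and 29.5% for unkept regions, a difference of 14.9 points (exact sign-flip permutation p = 0.03125, two-sided, the smallest that 6 lines allow; adjusted p = 0.0781). The lines WT7, CM59 and CM69 are related, and lines were sampled on different days, so the 6 values are not a uniform series. The methods of the study do not name WT70 and WT72 but describe mock-transfected clones of WT7, so these lines may be related too. Against all consensus regions the kept regions were lower by 18.9 points (adjusted p = 0.3125 in the exact test). Kept regions were above them in the WT lines of day 2 and below them in the other 4 lines. The values of the MUT lines average both days, and WT7 and WT34 were sampled on day 3 only. On day 2 alone the MUT lines were above too, at 80.0% against 65.0% (CM59) and 74.0% against 63.9% (CM69).

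Kept regions were stronger on day 2 than unkept ones, which moves with this difference. Their median ranks were 37254.5 and 38778 in MUT libraries and 38971 and 42431.5 in WT libraries of day 2, against 47744.5, 47827, 49801.5 and 46605.5 for unkept regions. After these values were seen, the sets were narrowed to the regions open in all 4 MUT and WT libraries of day 2, which left 219 kept (47.0%) and 358 unkept regions (24.8%). Of these kept regions, 22.4% and 40.2% were open in MUT libraries of day 3, against 6.42% and 7.82% of the unkept ones. In CHIR libraries the shares were 9.13% and 11.0% of kept and 5.87% and 5.03% of unkept regions. The ranks on day 2 were not matched by this step, and their part in the difference was not tested.

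In MUT cells both days were sampled in the same pair of lines. Of the 466 kept regions, 170 (36.5%) were lost on day 3, open in both MUT libraries of day 2 and neither of day 3, against a background of 4.49% of all consensus regions. The reverse change was seen at 4 (0.858%; background 3.92%). Unkept regions were lost at 36.7%, nearly the same share. Open in both MUT libraries of day 2 were 311 of the 466 kept and 589 of the 1442 unkept regions. Of these 311 kept regions, 39 (12.5%) were open in both MUT libraries of day 3, 102 in 1 and 170 (54.7%) in neither. Of the 589 unkept regions, 11 were open in both and 529 (89.8%) in neither, and of 46240 such consensus regions 82.4% were open in both.

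Relative to WT of day 2, CHIR-treated WT cells of day 3 had lost 231 kept regions (49.6%; background 11.8%) and gained 1 (0.215%; background 12.3%). Of split and unkept regions, 42.4% and 34.6% were lost. A further 900 regions were open in both libraries of XAV-treated KO, KO of day 2 and WT of day 3. They were closed in untreated KO of day 3, and 63.7% of them were lost. Relative to MUT cells of day 3, CHIR-treated WT cells had lost 43 kept regions (9.23%; background 9.13%) and gained 18 (3.86%; background 10.8%). The share lost against MUT was that of consensus regions at large, while the share gained was below it. Line, genotype and treatment differ together in the second comparison, and few kept regions were open in both MUT libraries to begin with.

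Over the 8 libraries outside the rule the kept regions varied widely. In the 4 of day 2, 219 were open in all, 107 in 3, 70 in 2, 46 in 1 and 24 in none. Open in all 4 of day 2 were 47.0% of kept, 37.0% of split and 24.8% of unkept regions. On day 3, 235 (50.4%) were open in none of the 4, 53 (11.4%) in both MUT libraries and 30 (6.44%) in both CHIR libraries. The most frequent pattern, at 101 regions, was open in all 4 of day 2 and none of day 3, and both regions nearest to Dtwd2, a tRNA-modifying enzyme gene, had it. Another 25 were open in all 4 of day 2 and in both MUT libraries but in neither CHIR library. They included a region in Fggy, which codes for a carbohydrate kinase, and a region in Tenm2, a teneurin gene for cell adhesion. A further 18 (3.86%, against 10.8% of all consensus regions) were open in both CHIR libraries and neither MUT library of day 3. Open in all 4 libraries of day 3 were 6, and 13 were open in none of the 8. The other patterns were not counted over all consensus regions, so their counts describe the kept regions only.

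**Figure D3:**
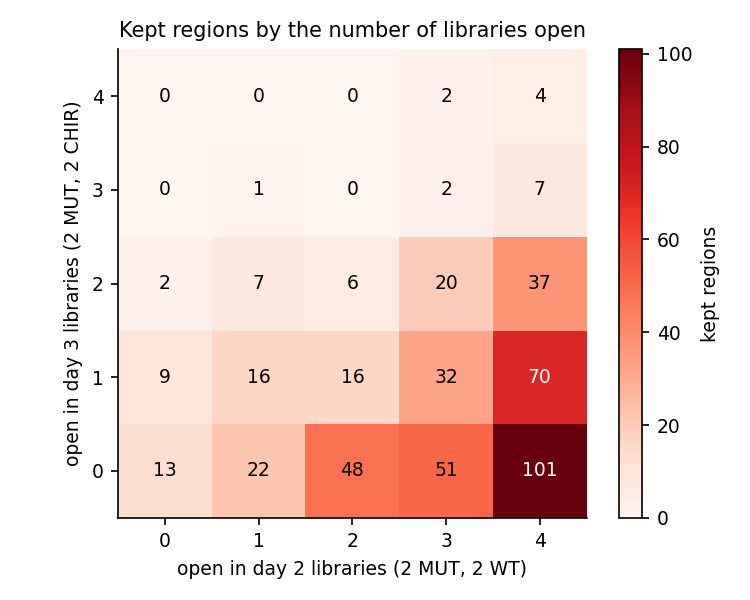
Number of kept regions (colour and figures in the cells) by how many of the 4 MUT and WT libraries of day 2 (x axis) and how many of the 4 MUT and CHIR libraries of day 3 (y axis) they were open in. The largest cell, 101 regions, is open in 4 of day 2 and 0 of day 3, and 13 regions were open in none of the 8.

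Several of the 10 regions with the widest gap in rank illustrate the extremes. The region in Rerg, a Ras-like small GTPase gene, ranked 31091 and 37072 in XAV-treated KO libraries, 120476 in KO1 of day 3 with no interval in KO15, 131981 and 120280 in WT libraries of day 3, and 39904 and 34214 in KO libraries of day 2. In MUT cells it ranked 129359 and 115428 on day 3 and 45632 and 48634 on day 2, and it had no interval under CHIR. The region nearest to Lta4h, which codes for leukotriene A4 hydrolase, was open in all 4 day 2 libraries outside the rule (ranks 37391, 35556, 35055 and 47543). It was weak in both MUT libraries of day 3 (123541 and 118118). The region near Zfp280d, a zinc finger gene, behaved likewise on day 2 (20109, 25202, 37145 and 25880) and ranked 87356 and 60448 in MUT cells of day 3.

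The region in Map2, the gene of a microtubule-associated protein of neurons, followed the KO lines. It ranked 37382 and 31602 in XAV-treated KO libraries, 97651 in untreated KO1 of day 3 and 21007 and 25906 in KO libraries of day 2, with no interval in untreated KO15 of day 3. None of the 10 WT, MUT and CHIR libraries held a deposited interval there. A region on chromosome 1 at chr1:81562805-81563130, with no protein-coding TSS within 100 kb, showed the same pattern, with ranks of 29690 and 41944 in XAV-treated KO libraries. These were the only 2 kept regions (0.429%) without an interval outside the KO lines, against 25 of all consensus regions (0.0310%), 0 split and 0 unkept regions. The rule asked for open KO libraries and closed WT libraries of day 3, which favours such regions over consensus regions at large. Genotype and line cannot be told apart for these 2 regions. Others of the 10 lay near Myo5b, Aak1 (in a coding exon) and Sem1 and at 2 sites with no protein-coding TSS within 100 kb, and none of these 5 was open in a CHIR library.

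By position the kept regions were mostly distal. Of the 466, 367 (78.8%) lay over 3 kb from every annotated TSS, against 73.5% of split, 68.1% of unkept and 59.1% of all consensus regions. The median distance was 10511 bp for kept regions, 8539 bp for split, 7487.5 bp for unkept and 5458 bp for all. Introns held 215 (46.1%) of the kept regions and intergenic sequence 207 (44.4%). Coding exons held 21 (4.51%), close to the 4.21% of all consensus regions, whereas they held 238 (16.5%) of the unkept regions. The kept and unkept sets therefore differed in the kind of site they contained, and no test was made of these shares.

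**Figure D4:**
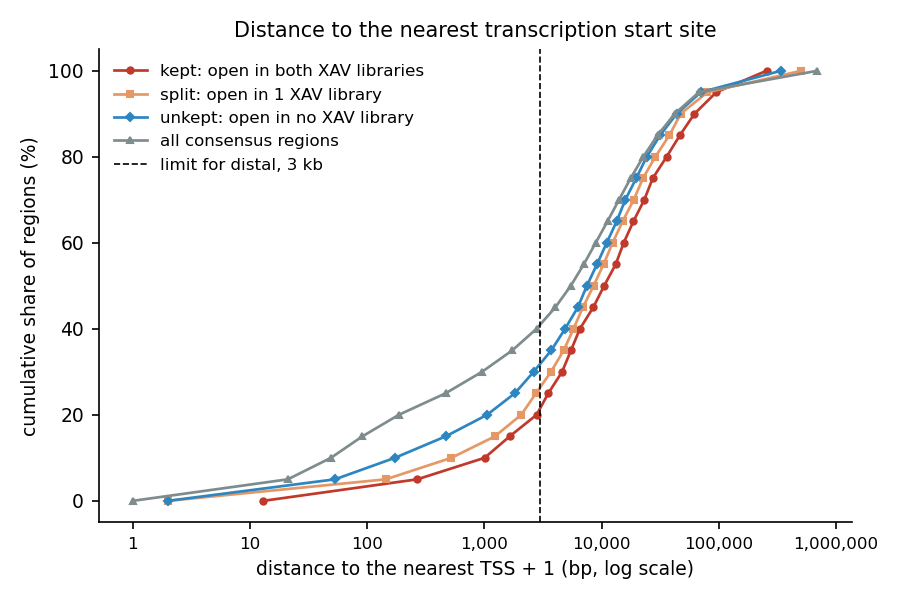
Cumulative share of regions (y axis, %) by distance from the region's centre to the nearest annotated TSS (x axis, bp, log scale), for kept, split, unkept and all consensus regions. The kept regions lie furthest right up to the 90th percentile of each curve; 78.8% of them are beyond the dashed line at 3 kb, against 59.1% of all consensus regions.

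Kept regions were also poorer in GC and CpG. The median GC content of the 300 bp windows was 49.3% (quartiles 45.7 and 53.3%) in kept, 51% in split, 53.3% in unkept and 53.7% in all consensus regions. Kept regions had a median of 2 CpG dinucleotides per window, against 3 in split, 6 in unkept and 5 in all regions. Of the kept regions, 65 (13.9%) had none, against 11.1% of split, 5.55% of unkept and 5.10% of all. A window in which at least 50% of the bases are repeat-masked in RefSeq was found at 53 kept regions (11.4%), 10.8% of split, 9.57% of unkept and 3.41% of all regions. It was 4.44% in the 900 regions described above. These were open in the XAV pair, the KO pair of day 2 and the WT pair of day 3 and in neither untreated KO library of day 3. These 900 regions had a median GC content of 51% and a median of 4 CpG, with none in 7.67%.

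Among 20 consensus motifs searched on both strands of those windows, SOX (ACAANGG) was the most frequent in kept regions, at 120 (25.8%), against 21.3% of split, 18.9% of unkept and 16.8% of all consensus regions. It was more frequent still, at 29.9%, in the 900 regions that also stayed open in WT cells. OCT (ATGCNAAT) was matched in 44 (9.44%), against 10.8% of the 900 regions, 6.19% of split, 5.20% of unkept and 5.06% of all. Joint OCT-SOX (TTGTNATGC) was matched in 13 (2.79%), against 3.44% of the 900 regions, 4.03% of split, 2.43% of unkept and 1.16% of all. NFY (CCAATCA) was matched in 49 (10.5%), against 6.11% of the 900 regions, 8.63% of split, 6.73% of unkept and 6.06% of all. TCF/LEF (ATCAAAG) was matched in 16 kept regions (3.43%), 4.46% of split, 3.26% of unkept and 5.00% of all regions. GC-rich motifs ran the other way. KLF/SP (GGGCGGGG or GGGTGTGG) was matched in 7.73% of kept, 11.2% of unkept and 15.6% of all regions, TFAP2 (GCCNNNGGC) in 10.3%, 15.5% and 16.2%, and ETS (CCGGAAGT) in 0.215%, 1.25% and 1.81%. GC content moves with these shares, its part in them was not tested, and a match is a run of letters rather than a bound site.

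**Figure D5:**
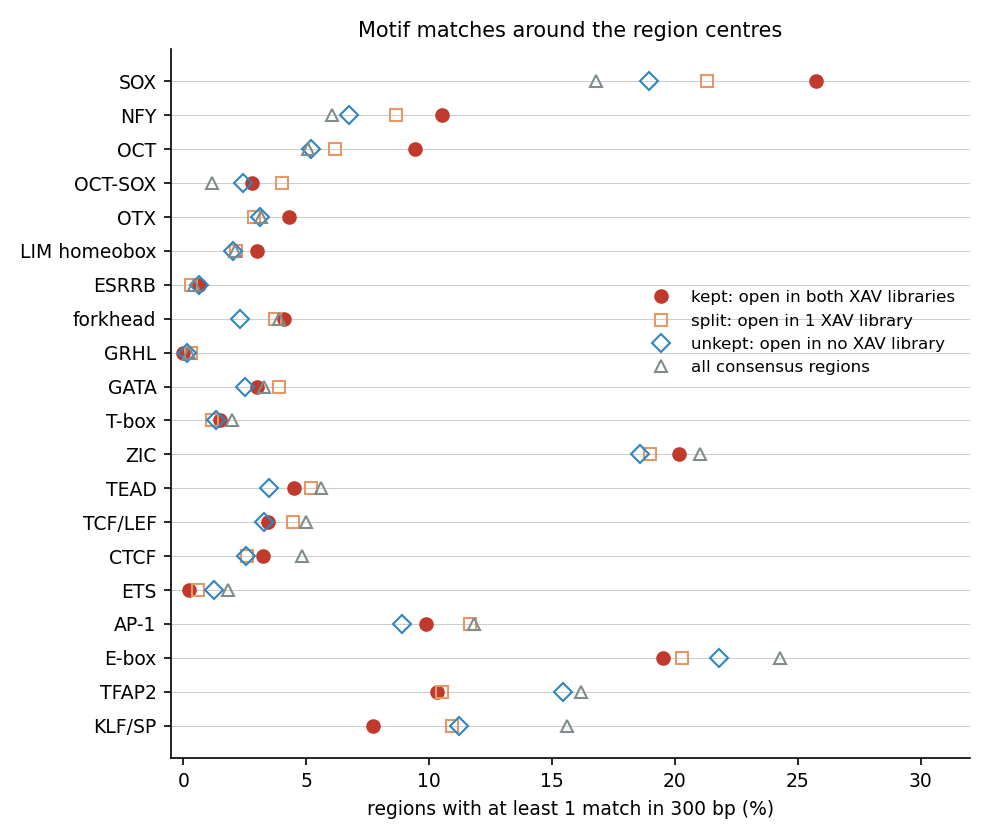
Share of regions with at least 1 match (x axis, %) to each of 20 motifs (y axis) in 300 bp around the centre, for kept (filled circles), split (squares), unkept (diamonds) and all consensus regions (triangles). Motifs are sorted by the kept share minus the share of all; SOX (25.8% against 16.8%) is at the top and KLF/SP (7.73% against 15.6%) at the bottom.

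The kept regions were also divided by their state in MUT cells of day 3, with no test of the shares. Among the 53 open in both MUT libraries, 9 (17.0%) held SOX, 1 (1.89%) NFY, 6 (11.3%) OCT and 3 (5.66%) OCT-SOX. Among the 271 open in neither, 73 (26.9%) held SOX, 33 (12.2%) NFY, 27 (9.96%) OCT and 5 (1.85%) OCT-SOX. LIM homeobox (CTAATTA) and forkhead (TGTTTAC) matches were held by 4 (7.55%) each of the 53 and by 6 (2.21%) and 7 (2.58%) of the 271. The 142 regions open in 1 MUT library and the other motifs are left out here. No motif was matched in more than 9 of the 53, so their shares rest on few regions. Several NFY copies were rare, since 5 kept regions (1.07%) held 3 or more, against 0.128% of all consensus regions. These were the regions nearest to Rerg (8 copies), St5, Wapl and Rnf165 (4 each) and Wdhd1 (3), all counted after the Rerg region had been seen. Repeat-masked bases made up 0 to 26.3% of their windows. The Rerg window had no masked bases, yet a short run of letters recurs through it, so its 8 copies are not separate sites.

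Within 100 kb of a protein-coding TSS lay 366 of the kept regions, assigned to 355 genes. Of those genes, 346 had 1 kept region, 7 had 2 and 2 had 3. Apbb2, which codes for an adaptor that binds the amyloid precursor protein, had 3 of its 18 consensus regions kept, all intronic. The region at chr5:66393195-66393515, was open in both CHIR libraries (ranks 37619 and 45534), in all 4 day 2 libraries outside the rule and in neither MUT library of day 3. Runx1t1, the gene of a transcriptional corepressor, had 3 of 15, of which a neighbouring pair at chr4:13853879-13854232 and chr4:13854259-13854585 shared an interval in 5 of the 16 libraries and is not independent. Genes with 2 included Bcar3 (a signalling adaptor), Dtwd2, Fggy, Myo5b (an unconventional myosin), Rps6ka1 (a kinase downstream of ERK) and Tenm2. Neither region of Bcar3 and Tenm2 was open in a CHIR library, and both regions of Tenm2 were open in at least 1 MUT library of day 3. Of genes with 1, the first by symbol were 1600014C10Rik, 1600014C23Rik, 1700003H04Rik, 1700037H04Rik, 1700069L16Rik and 5730522E02Rik. Among their regions only that of 1600014C23Rik was open in a MUT library of day 3, and none in a CHIR library.

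The share of developmental genes was near the background. Of 251 genes in 16 lists with a consensus region nearby, 6 (2.39%) had a kept region, against 355 of 17395 genes overall (2.04%). The lists for posterior and neuromesodermal cells, mesoderm, neuroectoderm and forebrain (0 of 30), Nodal, FGF, Notch and Hippo signalling, trophoblast, fibroblasts and housekeeping had none. The 6 genes were Wnt8a, Trh, Sox9, Grhl2, Prdm14 and Cubn, and Wnt8a was the only 1 of 34 genes of the Wnt pathway.

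Wnt8a codes for a Wnt ligand of the primitive streak. Its kept region, intergenic and 12543 bp from its TSS, ranked 35432 and 30063 in XAV-treated KO libraries, 67965 and 86391 in untreated KO and 72713 and 77759 in WT libraries of day 3, and 37355 and 37740 in KO libraries of day 2. In MUT cells it ranked 67784 and 49810 on day 3 and 32594 and 34362 on day 2, and under CHIR 69072 and 97738. It was open in 1 MUT library of day 3, just inside the limit, and in 3 of the 4 day 2 libraries outside the rule.

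The region assigned to Sox9, a transcription factor gene of neural crest and other tissues, lay 44497 bp from its TSS. It ranked 26976 and 21305 in XAV-treated KO libraries, 80347 and 59952 in untreated KO and 52445 and 76548 in WT libraries of day 3, and 25206 and 34792 in KO libraries of day 2. In MUT cells it ranked 104617 and 53199 on day 3 and 56604 and 41131 on day 2, and it had no interval under CHIR. The region of Grhl2, an epithelial transcription factor gene, differed from the other 5 in being open in both CHIR libraries (28994 and 25638) and both MUT libraries of day 3 (39804 and 45812). It ranked 38080 and 26132 in XAV-treated KO libraries, 52333 and 66754 in untreated KO and 94168 and 69113 in WT libraries of day 3.

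Prdm14 codes for a regulator of naive pluripotency and germ cell fate. Its region ranked 41204 and 47154 in XAV-treated KO libraries and 52237 and 116074 in untreated KO libraries of day 3. It was open in all 4 day 2 libraries outside the rule, in neither MUT library of day 3 and in 1 CHIR library (rank 39635). The region assigned to Cubn, the gene of an endocytic receptor of visceral endoderm, lies in a UTR of the neighbouring gene Trdmt1. It ranked 20507 and 31080 in XAV-treated KO libraries, 81610 and 104854 in untreated KO libraries of day 3 and 13336 and 19008 in KO libraries of day 2, and was open in 1 MUT library of day 3 at rank 49885. The region of Trh, the gene of thyrotropin-releasing hormone, ranked 36996 and 48427 in XAV-treated KO libraries and 69599 and 50014 in untreated KO libraries of day 3, so that it entered the set by 14 ranks in KO15.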

How the data were processed

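The authors processed omni-ATAC-seq reads of the 16 libraries with the ENCODE ATAC-seq pipeline on mm10 and deposited a peak list per library. No version of the aligner or peak caller was given in the sources used here. Every deposited interval comes with a fold enrichment (a ratio to local background), a −log10 p and a −log10 q by the authors' caller, with −log10 p of 2 as the lowest. These ranked intervals within a library only. The submitters' processing notes also name DiffBind 3.0.15, HOMER 2 and deepTools 3.4.3. Lists of regions that differed between KO and WT cells hold the authors' own calls and were not used. The lists hold no read counts, so depth is unknown.

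Groups, including the lines shared between groups, came from the labels. Occupancy, the share of a set of regions open in a library, was tested by exact permutation over libraries, or by sign flips over lines, two-sided, with Benjamini-Hochberg adjustment over 5 tests and a threshold of 0.05 (Python 3.11.15, numpy 2.4.6, pandas 2.3.3, scipy 1.17.1, matplotlib 3.10.9). The p-values measure the spread between these libraries and lines. Positions came from GENCODE M21 on GRCm38.p6, whose coordinates are those of mm10. Regions over 3 kb from every TSS were distal, and genes were assigned by the nearest protein-coding TSS within 100 kb. Lists held 255 genes in 16 lists. Named were genes of the lists with a kept region, up to 15 genes with the most kept regions (ties by symbol), the 10 regions with the widest rank gap, and regions of 2 fixed patterns at those genes. The regions, lists and tests were chosen with earlier results of these data known. Results at some single genes and regions are not reported here. The rule was tested on simulated lists. Alternatives varied the intervals retained, window, minimum of libraries, overlap, distances, motif window and each library.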

Additional observations from a re-analysis of the deposited data

How the results depend on the processing

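The number of regions was the result that moved most, with 272 at 30000 intervals per library and 1720 with every interval of −log10 q of at least 2. Leaving out a library of the rule gave 574 to 933 regions, the highest without WT70 of day 3 (933), followed by 820 and 807 without XAV-treated KO1 and KO15. The distal share was 89.9% beyond 1 kb and 51.1% beyond 10 kb, and 220 genes had a region assigned within 20 kb. In 200 bp windows the shares with TEAD, ZIC, AP-1 and E-box matches were 2.15%, 15.2%, 6.44% and 14.6%. All 5 occupancy differences kept their direction under every alternative tried, and none passed the threshold after adjustment under any alternative with a test. Over the other settings the difference of day 3 minus day 2 ranged between −59.0 and −50.4 points, CHIR minus MUT between −19.7 and −12.8, MUT day 3 minus day 2 between −53.6 and −45.1, kept minus unkept between 9.24 and 18.2, and kept minus all between −26.4 and −10.3. Leaving out a library gave −60.3 to −48.0, −24.2 to −11.7, −55.4 to −42.2, 10.4 to 18.2 and −24.7 to −12.2 points, in the same order. The replicate block, the difference within CM59 and CM69, was −50.4 points, the same value as the MUT difference, and carries no test. Depth is unknown, so weak intervals could not be separated from shallow libraries.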

Other observations

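Marker lists of an embryo atlas, 12 in all and given through the study, were set against the 355 genes with a kept region (2.04% of genes with a consensus region). The extraembryonic ectoderm list had 9 of 263 genes (3.42%), among them Sfmbt2, Cul4b and Fermt2, and the epiblast list 4 of 73 (5.48%), namely Arl4c, Gsta4, Rbpms2 and Trh. The visceral endoderm list had 6 of 479 (1.25%), and the mesoderm and neuromesodermal progenitor lists 0 of 79 and 0 of 100. Rbpms2 and Trh also stood in the primitive streak list (2 of 37). No test was made of these counts.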
